A study of Mus musculus with 4 samples.

Results

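RNA-seq levels of 9 secreted angiogenic factors were examined in mouse embryonic fibroblasts (MEF): the VEGF ligands *Vegfa*, *Vegfb*, *Vegfc*, *Figf* (*Vegfd* in newer annotation) and *Pgf*, the angiopoietins *Angpt1* and *Angpt2*, and the angiopoietin-like genes *Angptl2* and *Angptl4*. The 9 genes were taken by name from 24933 genes that could be named by position on the same strand, with 1 transcript per gene, the one with the longest gene body. There were 4 libraries, 1 for each combination of genotype and treatment: *Hmga2*+/+ Ctrl, *Hmga2*+/+ TGFB1, *Hmga2*-/- Ctrl and *Hmga2*-/- TGFB1. *Hmga2* encodes a DNA-bending protein of chromatin, and the comparison asks how transcription responds to TGFB1 with and without it. The cells came from C57BL/6 embryos of embryonic day 15.5 and were immortalized with SV40, so all 4 libraries share the viral immortalization. All were starved in medium with 1% FCS, and then received 10 ng/ml human recombinant TGFB1 or water for 24 h. How many embryos or lines stand behind a genotype is not given in the sources used here, so a difference between genotypes and a difference between lines cannot be told apart.

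VEGF ligands act on receptor tyrosine kinases of blood and lymphatic endothelium: VEGFA binds FLT1 and KDR, VEGFB and PGF bind FLT1, and VEGFC and VEGFD bind FLT4 and, once processed, KDR. Angiopoietins bind TEK (TIE2), where ANGPT1 is the activating ligand and ANGPT2 mostly opposes it. The angiopoietin-like proteins share the fold of the angiopoietins but do not signal through TEK, and ANGPTL4 is best known as an inhibitor of lipoprotein lipase. Fibroblasts are a known source of VEGFA, and hypoxia acting through HIF1A is its best known inducer.

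The depth was 56140000 to 57300000 mapped reads per library, so that *Pgf*, at 0.337 RPKM in *Hmga2*+/+ Ctrl, rested on 30 reads there. RPKM scales reads to transcript length and to the mapped reads of the library. Levels can thus be compared between genes for the transcript models used, but models of the same gene can differ. Those of *Vegfa* ranged from 16.0 to 78.9 RPKM in *Hmga2*-/- TGFB1. With 1 library per condition no difference has a replicate check within its condition, and no test was run. A gene was called higher or lower where it changed at least 1.5-fold and had a mean of at least 50 reads over the 4 libraries, which 11704 genes had. Each 95% interval given here covers counting error only. *Hmga2* itself was at 14.8 RPKM in *Hmga2*+/+ Ctrl, 40.7 RPKM in *Hmga2*+/+ TGFB1, and 0 reads in both *Hmga2*-/- libraries, as the labels say. Of the genes that mark the treatment, *Ctgf*, *Smad7*, *Acta2* and *Tagln* were higher and *Tgfbi* lower on TGFB1 in both genotypes. *Acta2*, a marker of myofibroblasts, was also 3.04-fold higher in *Hmga2*-/- than in *Hmga2*+/+ Ctrl. Of 6 treatment markers, counting 1 not reported here, 4 were higher and 0 lower in *Hmga2*-/- in Ctrl, against 2.73% and 2.37% of all genes. Under TGFB1 the counts were again 4 and 0, against 3.63% and 2.68%. Of 10 fibroblast markers *Col1a1*, *Vim* and *Fn1* stood at 272 RPKM or more in every library. *Dcn* (2.07 to 8.46 RPKM) and *Lum* (0.246 to 1.08 RPKM) were low. On TGFB1 2 of the 10 were higher and 4 lower in *Hmga2*+/+ (all genes 11.6% and 18.3%). In *Hmga2*-/- 3 were higher and 4 lower (13.2% and 16.8%). Of 12 endothelial markers *Pecam1*, *Cdh5*, *Emcn*, *Vwf*, *Cldn5* and *Tie1* had at most 11 reads and *Esam* at most 19 in any library. The other 5 had more: *Erg* 286 to 656 reads, *Egfl7* 71 to 140, *Tek* 88 to 1490, *Kdr* 337 to 2270 and *Flt1* 299 to 1068.

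The factors fell into 2 tiers of abundance. *Vegfb* was the most abundant, with a mean of 79.0 RPKM over the 4 libraries, above 97.6% of the genes with enough reads. *Vegfa* (mean 27.0 RPKM), *Angptl2* (18.8), *Angpt1* (10.5), *Figf* (6.33) and *Vegfc* (3.68) followed in that order. *Pgf* (0.544), *Angptl4* (0.443) and *Angpt2* (0.178) were low, with a mean of 49, 47.5 and 35.8 reads, and did not pass the read minimum. So 6 of the 9 factors could be called, and the other 3 are given by their values and intervals.

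**Figure D1:**
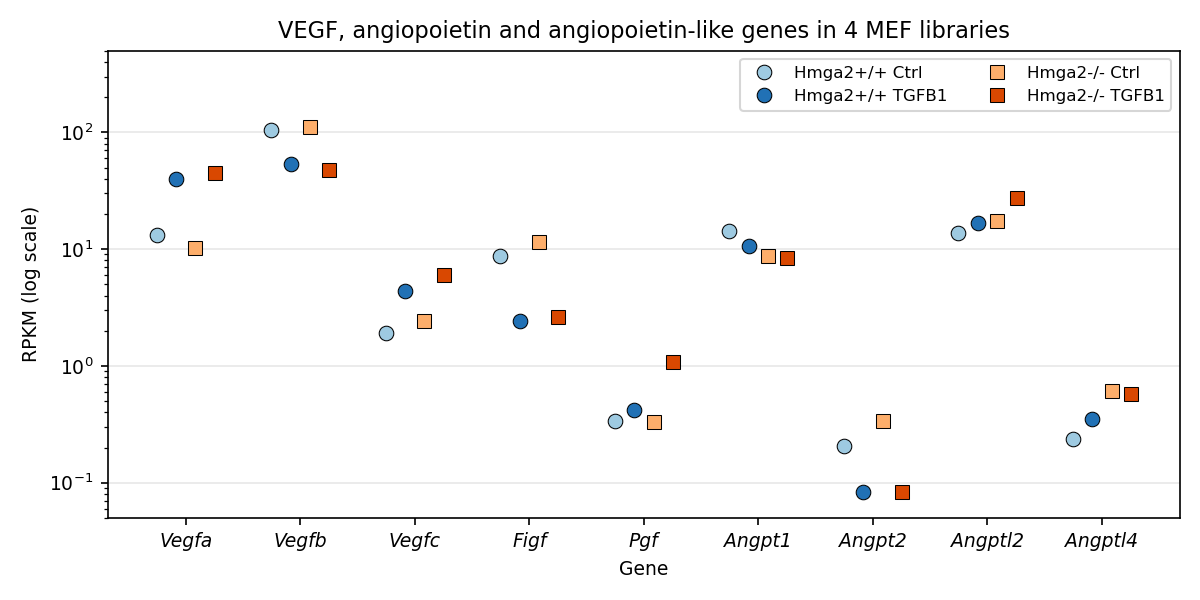
RPKM of each factor (log scale) in the 4 libraries, 1 point per library, circles for *Hmga2*+/+ and squares for *Hmga2*-/-, light for Ctrl and dark for TGFB1. *Vegfa* and *Vegfc* were higher and *Vegfb* and *Figf* lower in both TGFB1 libraries than in either Ctrl library, and *Pgf*, *Angpt2* and *Angptl4* stayed near or below 1 RPKM.

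On TGFB1 the VEGF ligands moved in opposite directions, in both genotypes. *Vegfa* and *Vegfc* rose, and *Vegfb* and *Figf* fell. In *Hmga2*+/+ MEF these were 2 of 6 factors higher and 2 of 6 lower, against 11.6% of all genes called higher and 18.3% called lower. In *Hmga2*-/- MEF 3 of 6 were higher, with *Angptl2* added, and 2 of 6 were lower, against 13.2% and 16.8% of all genes. The median log2 change of the 6 factors was -0.07 in *Hmga2*+/+ and 0.30 in *Hmga2*-/-, beside -0.06 and 0.00 for all genes.

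**Figure D2:**
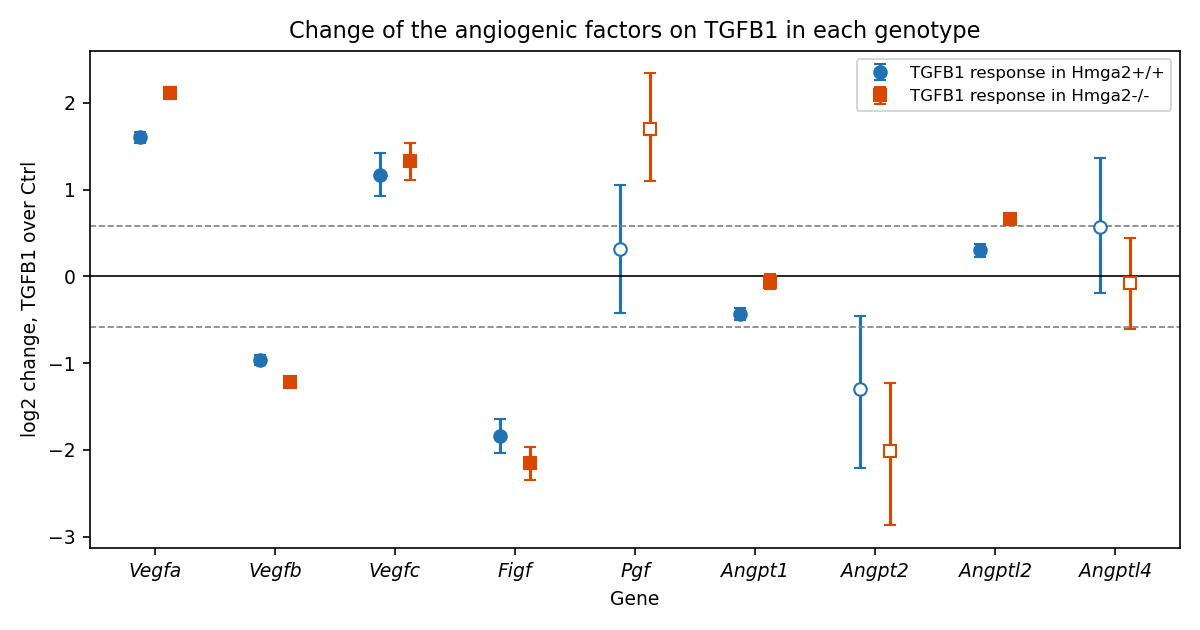
log2 change on TGFB1 over Ctrl for each factor in *Hmga2*+/+ (circles) and *Hmga2*-/- (squares) with 95% counting intervals, filled where the gene passed the read minimum and open where it did not, and dashed lines at 1.5-fold. *Vegfa* and *Vegfc* lay above the upper line and *Vegfb* and *Figf* below the lower line in both genotypes.

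*Vegfa* (chr17:46016993-46032377 in mm10, minus strand), the main growth factor of blood vessel endothelium, was at 13.2 RPKM in *Hmga2*+/+ Ctrl and 39.9 RPKM in *Hmga2*+/+ TGFB1. In *Hmga2*-/- MEF it was at 10.3 RPKM in Ctrl and 44.5 RPKM under TGFB1. Both TGFB1 libraries were thus above both Ctrl libraries. Here and below such an order describes these 4 libraries, and its share among all genes was not computed. The rise was 3.04-fold in *Hmga2*+/+ (log2 change 1.60, interval 1.54 to 1.67) and 4.31-fold in *Hmga2*-/- (2.11, 2.04 to 2.18). *Vegfa* therefore rose in the absence of *Hmga2*. Its log2 response was 0.51 larger in *Hmga2*-/- (interval 0.41 to 0.60), which is under the 1.5-fold limit of 0.58. That difference was made up of a 1.27-fold lower level in *Hmga2*-/- Ctrl and a 1.12-fold higher level in *Hmga2*-/- TGFB1.

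The table holds 8 transcripts of *Vegfa*, and their read differences separate its alternative exons. Exons 6 and 7 encode stretches that bind heparin and hold the protein at the cell surface and matrix, and the freely diffusing short form lacks both. Both exons are shown because the reads in them divide the long forms of *Vegfa* from each other. Exon 6 (72 bases, chr17:46022277-46022348) and exon 7 (132 bases, chr17:46020991-46021122) are printed 5′ to 3′ on the minus strand of mm10, the exon in capitals and 12 coding bases of its neighbours on either side in lower case.
Vegfa exon 6: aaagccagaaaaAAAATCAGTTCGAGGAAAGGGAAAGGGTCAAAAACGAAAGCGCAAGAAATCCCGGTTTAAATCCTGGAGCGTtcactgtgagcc
Vegfa exon 7: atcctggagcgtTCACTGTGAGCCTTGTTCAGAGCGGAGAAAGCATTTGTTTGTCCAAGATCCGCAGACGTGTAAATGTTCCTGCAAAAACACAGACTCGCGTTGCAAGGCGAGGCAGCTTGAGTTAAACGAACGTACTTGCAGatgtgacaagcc

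In every library exon 7 held many more reads than exon 6. Exon 7 held 88 reads in *Hmga2*+/+ Ctrl, 272 in *Hmga2*+/+ TGFB1, 82 in *Hmga2*-/- Ctrl and 282 in *Hmga2*-/- TGFB1. By the read difference of the models used, exon 6 held 2, 14, 5 and 41 reads in the same order. Exon 6 reads were the smaller part of the reads of both exons in every library. Their share was 2.22% in *Hmga2*+/+ Ctrl (exact binomial interval 0.270 to 7.80%) and 4.90% in *Hmga2*+/+ TGFB1 (2.70 to 8.08%). It was 5.75% in *Hmga2*-/- Ctrl (1.89 to 12.9%) and 12.7% in *Hmga2*-/- TGFB1 (9.27 to 16.8%). The intervals of Ctrl and TGFB1 overlapped in both genotypes, while that of *Hmga2*-/- TGFB1 lay above that of *Hmga2*+/+ TGFB1. Exon 7 is the longer of the pair, and per counted base the density of exon 6 was 4.22% (0.503 to 15.7%) of that of exon 7 in *Hmga2*+/+ Ctrl and 9.56% (5.16 to 16.3%) in *Hmga2*+/+ TGFB1. It was 11.3% (3.58 to 27.5%) in *Hmga2*-/- Ctrl and 27.0% (19.0 to 37.6%) in *Hmga2*-/- TGFB1. With 1 library of each kind and at most 41 reads this compares those libraries and not the conditions. The kit sequences total RNA, so reads of unspliced transcripts can fall in the exons, and their part was not tested. The exon 6 reads are from models that held 8044 and 8030 reads in *Hmga2*+/+ TGFB1 and 8918 and 8877 in *Hmga2*-/- TGFB1. Another pair (chr17:46016993-46025163), which also differs by 70 counted bases, held 2363 and 2350, and 2715 and 2684. Its difference in *Hmga2*-/- TGFB1 is smaller, so the reads assigned to exon 6 depend on the pair of models. No share or interval was computed for that pair. The separation of the genotypes under TGFB1 is thus given for the models used, and whether the other pair shows it was not tested.

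**Figure D3:**
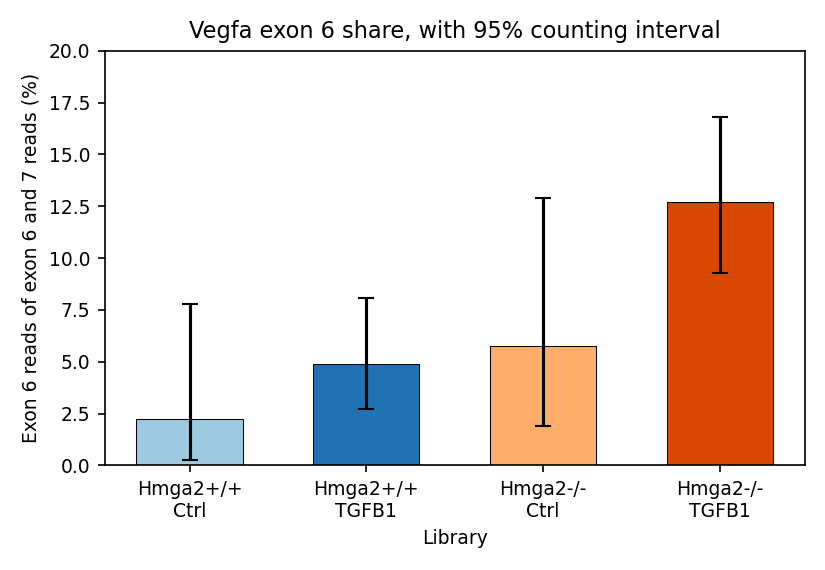
Share of *Vegfa* exon 6 reads among the reads of exons 6 and 7 (%) in each library, with bars for the share and 95% exact binomial intervals that cover counting error only. The share went from 2.22% in *Hmga2*+/+ Ctrl to 12.7% in *Hmga2*-/- TGFB1.

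The size of the *Vegfa* rise differed between transcript models. A transcript model of the 5′ part (chr17:46025211-46032377) rose 3.27-fold in *Hmga2*+/+ (log2 interval 1.63 to 1.79) and 4.37-fold in *Hmga2*-/- (2.05 to 2.21). One of the 3′ part (chr17:46016993-46025163), which shares no base with it, rose 2.34-fold (1.12 to 1.34) and 3.87-fold (1.83 to 2.07). The 5′ part was the more abundant in every library, at 18.1 to 78.9 RPKM against 4.41 to 17.1 RPKM. Both parts rose in both genotypes, and their counting intervals did not meet in *Hmga2*+/+ and did in *Hmga2*-/-. A short model that overlaps both parts (chr17:46022218-46028399) rose most, 3.42-fold (1.62 to 1.93) and 5.28-fold (2.23 to 2.57).

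*Vegfb* (chr19:6982472-6987651, minus strand), a ligand of FLT1 known for effects on heart and lipid uptake more than on vessel growth, was at 105 RPKM in *Hmga2*+/+ Ctrl and 53.5 RPKM in *Hmga2*+/+ TGFB1. In *Hmga2*-/- MEF it was at 110 RPKM in Ctrl and 47.3 RPKM under TGFB1. The Ctrl libraries were high and the TGFB1 libraries low, and the genotypes were close to each other within each treatment. In *Hmga2*+/+ *Vegfb* fell 1.96-fold (log2 change -0.97, interval -1.02 to -0.91) and 2.33-fold in *Hmga2*-/- (-1.22, -1.28 to -1.16). The difference of the responses was -0.25 (interval -0.34 to -0.17), inside the 1.5-fold limit.

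*Vegfb* has a heparin-binding form and a longer, diffusible form, which differ by a longer exon 6 that shifts the reading frame. The 101 bases that only the longer form holds (chr19:6985496-6985596, minus strand) are printed in capitals, between 12 coding bases on either side, because their reads count that form.
Vegfb exon 6 extension: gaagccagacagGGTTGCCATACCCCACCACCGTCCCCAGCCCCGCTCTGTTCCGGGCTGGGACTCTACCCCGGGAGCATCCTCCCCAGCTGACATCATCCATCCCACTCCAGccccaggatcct
These 101 bases held 34 and 31 reads in *Hmga2*+/+ Ctrl and TGFB1, and 24 and 19 reads in *Hmga2*-/- Ctrl and TGFB1. Per base this was 5.30%, 9.29%, 3.51% and 6.46% of the density over the rest of the transcript, in that order. If coverage is even along the transcript, which was not tested, the heparin-binding form made up most of *Vegfb* in every library. Reads of unspliced transcripts can fall in these bases too. The exact binomial intervals of Ctrl and TGFB1 overlapped in both genotypes, at 3.67 to 7.41% against 6.30 to 13.2% in *Hmga2*+/+ and 2.25 to 5.22% against 3.88 to 10.1% in *Hmga2*-/-.

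Because *Vegfa* and *Vegfb* moved in opposite directions, the make-up of the VEGF ligand transcripts changed more than their sum. The summed RPKM of the 5 ligand genes was 129 in *Hmga2*+/+ Ctrl, 101 in *Hmga2*+/+ TGFB1, 135 in *Hmga2*-/- Ctrl and 102 in *Hmga2*-/- TGFB1. *Vegfa* made up 10.2% of that sum in *Hmga2*+/+ Ctrl and 7.64% in *Hmga2*-/- Ctrl, and 39.7% and 43.8% in the matching TGFB1 libraries. *Vegfb* made up 81.3% and 81.7% in the Ctrl libraries, and 53.2% and 46.6% in the TGFB1 libraries. The ratio of *Vegfa* to *Vegfb* was 0.126 and 0.0935 in the Ctrl libraries of *Hmga2*+/+ and *Hmga2*-/-, and 0.746 and 0.941 in the TGFB1 libraries. Which of the pair was the more abundant under TGFB1 depended on the transcript. With the transcript of highest mean RPKM for each gene, a choice made after seeing the data, the ratio was 0.194 and 0.151 in Ctrl and 1.24 and 1.54 under TGFB1. *Vegfa* then made up 14.8% and 11.7% of the sum in Ctrl and 52.0% and 55.9% under TGFB1, and *Vegfb* 76.2% and 77.3% and then 41.7% and 36.2%. The *Vegfa* transcript of highest mean RPKM is the model of the 5′ part alone (chr17:46025211-46032377). A model of the 3′ part stood at 14.85 and 17.1 RPKM in *Hmga2*+/+ and *Hmga2*-/- TGFB1, and no ratio was computed with it. The *Vegfa* share was higher in the TGFB1 libraries with either choice of transcript. These are shares of transcripts, and protein was not measured.

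**Figure D4:**
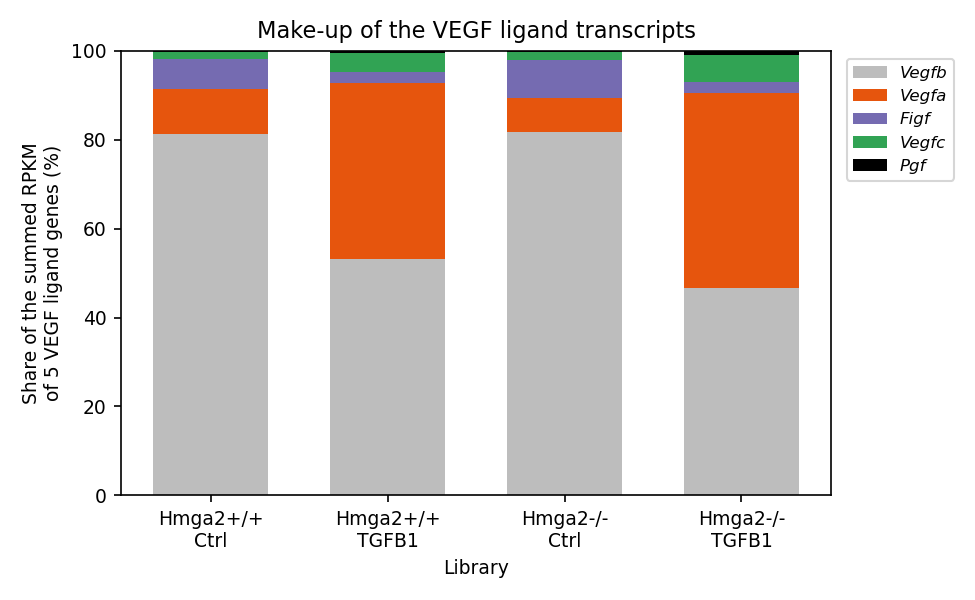
Share of each of 5 VEGF ligand genes in their summed RPKM (%), 1 stacked bar per library, from the transcript with the longest gene body. The *Vegfa* share was 7.64 to 10.2% in the Ctrl libraries and 39.7 to 43.8% in the TGFB1 libraries.

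The pair of lymphatic ligands changed places. *Vegfc* (chr8:54077532-54186454, plus strand), the main lymphatic growth factor, was at 1.93 RPKM in *Hmga2*+/+ Ctrl, 4.35 RPKM in *Hmga2*+/+ TGFB1, 2.41 RPKM in *Hmga2*-/- Ctrl and 6.05 RPKM in *Hmga2*-/- TGFB1. It rose 2.26-fold in *Hmga2*+/+ (log2 change 1.17, interval 0.93 to 1.42) and 2.51-fold in *Hmga2*-/- (1.33, 1.12 to 1.54). Both TGFB1 libraries were above both Ctrl libraries, and the difference of the responses, 0.15, had an interval from -0.16 to 0.47. *Figf* (chrX:164373522-164402650, plus strand), whose product VEGFD is the second ligand of FLT4, was at 8.67 RPKM in *Hmga2*+/+ Ctrl, 2.43 RPKM in *Hmga2*+/+ TGFB1, 11.6 RPKM in *Hmga2*-/- Ctrl and 2.61 RPKM in *Hmga2*-/- TGFB1. It fell 3.57-fold in *Hmga2*+/+ (log2 change -1.84, interval -2.04 to -1.64) and 4.45-fold in *Hmga2*-/- (-2.15, -2.35 to -1.97). Among the factors that could be called it had the widest range over the 4 libraries, 4.78-fold. The ratio of *Vegfc* to *Figf* was 0.222 and 0.208 in the Ctrl libraries of *Hmga2*+/+ and *Hmga2*-/-, and 1.79 and 2.32 in the TGFB1 libraries. *Figf* was thus the more abundant in Ctrl and *Vegfc* under TGFB1.

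*Pgf* (chr12:85166639-85177313, minus strand), placental growth factor and a ligand of FLT1, was at 0.337 RPKM (30 reads) in *Hmga2*+/+ Ctrl, 0.418 RPKM (38 reads) in *Hmga2*+/+ TGFB1, 0.334 RPKM (30 reads) in *Hmga2*-/- Ctrl and 1.09 RPKM (98 reads) in *Hmga2*-/- TGFB1. The *Hmga2*-/- TGFB1 library stood above the other 3, which had 30 to 38 reads. The log2 change on TGFB1 was 0.31 in *Hmga2*+/+ (interval -0.42 to 1.05) and 1.70 in *Hmga2*-/- (1.10 to 2.34), and the difference between them was 1.39 (0.48 to 2.30). *Pgf* had a mean of 49 reads, just under the minimum, and was not called.

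Of the angiopoietins, *Angpt1* was well expressed and *Angpt2* nearly absent. *Angpt1* (chr15:42424667-42676977, minus strand) was at 14.3 RPKM in *Hmga2*+/+ Ctrl, 10.6 RPKM in *Hmga2*+/+ TGFB1, 8.79 RPKM in *Hmga2*-/- Ctrl and 8.42 RPKM in *Hmga2*-/- TGFB1. Both *Hmga2*-/- libraries were below both *Hmga2*+/+ libraries. In Ctrl the level was 1.63-fold lower in *Hmga2*-/- (log2 change -0.70, interval -0.78 to -0.63), and under TGFB1 the log2 difference was -0.33 (-0.42 to -0.25), which did not reach 1.5-fold. On TGFB1 the log2 change of *Angpt1* was -0.43 in *Hmga2*+/+ (-0.51 to -0.36) and -0.06 in *Hmga2*-/- (-0.15 to 0.03), both short of the limit. *Angpt2* (chr8:18690263-18741562, minus strand) had 41 reads in *Hmga2*+/+ Ctrl, 17 in *Hmga2*+/+ TGFB1, 68 in *Hmga2*-/- Ctrl and 17 in *Hmga2*-/- TGFB1. Its log2 change on TGFB1 was -1.29 (interval -2.21 to -0.45) in *Hmga2*+/+ and -2.01 (-2.87 to -1.23) in *Hmga2*-/-, from at most 0.339 RPKM.

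Within each treatment 1 of 6 factors passed 1.5-fold between the genotypes, a difference that cannot be told apart from one between lines. In Ctrl 0 of 6 were higher and 1 of 6, *Angpt1*, was lower in *Hmga2*-/-, against 2.73% and 2.37% of all genes. Under TGFB1 1 of 6, *Angptl2*, was higher and 0 of 6 were lower, against 3.63% and 2.68%. For the difference of the responses 0 of 6 passed 1.5-fold in either direction, against 2.9% of all genes with a larger and 2.1% with a smaller log2 response in *Hmga2*-/-.

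*Angptl2* (chr2:33215961-33247714, plus strand), a secreted factor known from chronic inflammation and tissue remodelling, was at 13.7 RPKM in *Hmga2*+/+ Ctrl, 16.9 RPKM in *Hmga2*+/+ TGFB1, 17.3 RPKM in *Hmga2*-/- Ctrl and 27.4 RPKM in *Hmga2*-/- TGFB1. The lowest and the highest library thus differed in genotype and treatment, and the other two were close. The log2 change on TGFB1 was 0.30 in *Hmga2*+/+ (interval 0.23 to 0.37) and 0.66 in *Hmga2*-/- (0.60 to 0.72), so only the second passed 1.5-fold. The difference of the responses was 0.36 (0.26 to 0.45), short of the limit, so the responses of the genotypes are not shown to differ by that measure. Under TGFB1 *Angptl2* was 1.62-fold higher in *Hmga2*-/- (0.70, 0.64 to 0.76). *Angptl4* (chr17:33774900-33781575, minus strand) had 25 and 38 reads in *Hmga2*+/+ Ctrl and TGFB1, and 65 and 62 reads in *Hmga2*-/- Ctrl and TGFB1. Both *Hmga2*-/- libraries were above both *Hmga2*+/+ libraries, by a log2 difference of 1.36 in Ctrl (0.68 to 2.09) and 0.71 under TGFB1 (0.11 to 1.34). *Angptl4* was not called because of its low reads.

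The receptors of the ligands were also measured. Of 9 receptor and co-receptor genes 8 had enough reads, and 5 were higher and 1 lower on TGFB1 in each genotype, against 11.6% of all genes higher and 18.3% lower in *Hmga2*+/+ and 13.2% and 16.8% in *Hmga2*-/-. The median log2 change of these 8 was 0.73 in *Hmga2*+/+ and 0.83 in *Hmga2*-/-, beside -0.06 and 0.00 for all genes. *Kdr*, the main signalling receptor of VEGFA, was at 1.11 RPKM in *Hmga2*+/+ Ctrl, 4.46 RPKM in *Hmga2*+/+ TGFB1, 1.46 RPKM in *Hmga2*-/- Ctrl and 7.39 RPKM in *Hmga2*-/- TGFB1. It rose 4.01-fold and 5.08-fold, and was also 1.66-fold higher in *Hmga2*-/- under TGFB1. *Flt1*, a receptor of VEGFA, VEGFB and PGF, was at 0.856, 2.22, 0.852 and 3.02 RPKM in the same order and rose 2.59-fold and 3.54-fold. *Flt4*, the receptor of VEGFC and VEGFD, was at 0.487, 0.882, 0.712 and 1.12 RPKM and rose 1.81-fold and 1.57-fold. All of the VEGF receptor tyrosine kinases thus rose in both genotypes.

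*Tek*, the angiopoietin receptor, moved the other way. It was at 2.75 RPKM in *Hmga2*+/+ Ctrl, 0.330 RPKM in *Hmga2*+/+ TGFB1, 5.65 RPKM in *Hmga2*-/- Ctrl and 0.686 RPKM in *Hmga2*-/- TGFB1. It fell 8.33-fold in *Hmga2*+/+ (log2 interval -3.40 to -2.74) and 8.24-fold in *Hmga2*-/- (-3.27 to -2.82), and in both treatments it was higher in *Hmga2*-/-, 2.05-fold in Ctrl and 2.08-fold under TGFB1. *Tie1*, its partner, was at 0 in all 4 libraries. Of the co-receptors, *Nrp1* (21.8 to 30.6 RPKM) and *Nrp2* (23.4 to 37.5 RPKM) were far more abundant than the kinases. *Nrp2* passed 1.5-fold in *Hmga2*+/+ (1.52-fold higher, close to the limit) and not in *Hmga2*-/- (1.30-fold), and *Nrp1* passed in neither. *Itgb3*, an integrin subunit that pairs with KDR, rose 2.45-fold and 2.75-fold, and *Sdc3*, a heparan sulfate proteoglycan, was at 2.90 and 5.81 RPKM in *Hmga2*-/- Ctrl and TGFB1, which passed the limit, and 1.43-fold higher on TGFB1 in *Hmga2*+/+, which did not. *Tek*, *Kdr* and *Flt1* are also on the endothelial list, whose summed level was 10.3 and 10.8 RPKM in *Hmga2*+/+ Ctrl and TGFB1 and 12.9 and 13.8 RPKM in *Hmga2*-/- Ctrl and TGFB1. *Tie1* and *Cldn5* were at 0 reads throughout, and *Pecam1* had at most 5 reads. In bulk RNA fewer cells that express a gene and less of its RNA per cell cannot be told apart.

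**Figure D5:**
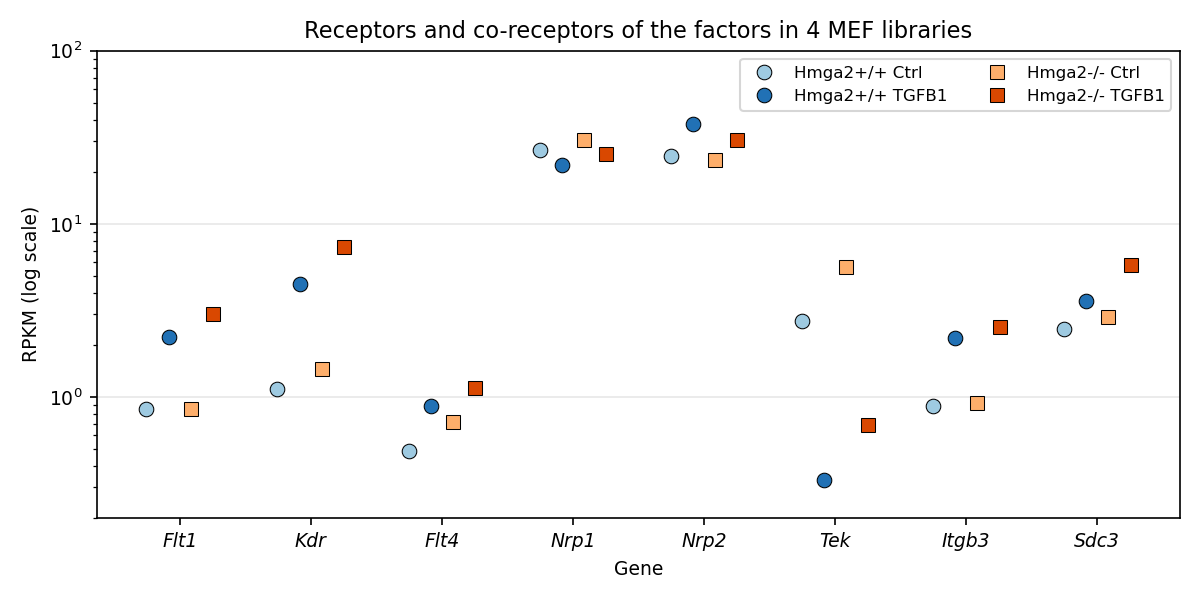
RPKM of receptors and co-receptors (log scale) in the 4 libraries, 1 point per library, circles for *Hmga2*+/+ and squares for *Hmga2*-/-, light for Ctrl and dark for TGFB1. *Kdr*, *Flt1*, *Flt4* and *Itgb3* were higher and *Tek* was lower in the TGFB1 libraries, and *Tie1*, at 0 in all libraries, is not drawn.

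VEGFC and VEGFD are made as precursors and have to be cleaved, and the genes for this step moved in different directions. Of 6 such genes with enough reads 3 were higher and 1 lower on TGFB1 in *Hmga2*+/+ (all genes 11.6% and 18.3%), and 2 higher and 1 lower in *Hmga2*-/- (13.2% and 16.8%), with a median log2 change of 0.56 and 0.31. *Ccbe1*, the cofactor that brings VEGFC to its protease, was at 0.892 and 8.06 RPKM in *Hmga2*+/+ Ctrl and TGFB1 and at 1.18 and 13.3 RPKM in *Hmga2*-/- Ctrl and TGFB1, a rise of 9.03-fold and 11.3-fold. *Adamts3*, that protease, was at 4.12, 1.57, 1.48 and 0.398 RPKM in the same order, a fall of 2.63-fold and 3.71-fold. *Adamts3* was also 2.79-fold lower in *Hmga2*-/- in Ctrl and 3.93-fold lower under TGFB1. Within each genotype the cofactor of the step thus rose while its protease fell. *Pcsk5*, a proprotein convertase, rose 2.14-fold in *Hmga2*+/+ and was 1.13-fold higher in *Hmga2*-/-, at 0.0940 to 0.338 RPKM.

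Other ligands linked to angiogenesis, whether they promote or restrain it, did not move one way. Of 13 with enough reads 4 were higher and 3 lower in *Hmga2*+/+ (all genes 11.6% and 18.3%) and 4 higher and 4 lower in *Hmga2*-/- (13.2% and 16.8%), with a median log2 change of -0.24 and -0.08. *Fgf2*, a growth factor for fibroblasts and endothelium, rose 10.2-fold, from 3.41 to 34.7 RPKM, in *Hmga2*+/+ and 14.7-fold, from 2.30 to 34.0 RPKM, in *Hmga2*-/-. *Pdgfb*, which recruits pericytes to vessels, rose 14.8-fold and 14.4-fold from 10 and 21 reads, and *Pdgfa* rose 2.61-fold and 3.28-fold. Of 9 genes listed as angiogenesis inhibitors, a role not tested here, 1 was higher and 3 lower in *Hmga2*+/+. In *Hmga2*-/- 2 were higher and 3 lower, beside the same shares of all genes, with medians of -0.01 and 0.02. *Adamts1*, a protease that binds VEGFA, fell 5.00-fold and 5.26-fold, and *Sema3f*, a ligand of NRP2 that competes with VEGF, fell 3.61-fold and 3.12-fold. *Serpinf1*, pigment epithelium-derived factor, rose 2.09-fold in *Hmga2*-/- and was 1.47-fold higher in *Hmga2*+/+. Of 6 other angiopoietin and angiopoietin-like genes in the table *Angptl7* alone had enough reads, and it rose 3.83-fold in *Hmga2*+/+ and 1.67-fold in *Hmga2*-/-. *Angptl7* was also higher in *Hmga2*-/- than in *Hmga2*+/+, by a log2 difference of 2.24 in Ctrl and 1.05 under TGFB1. The log2 difference of its responses was -1.19, past the 1.5-fold limit.

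Known regulators of the factors were read from the same libraries. Of 13 HIF target genes with enough reads 6 were higher and 1 lower in *Hmga2*+/+ (all genes 11.6% and 18.3%), and 8 higher and 1 lower in *Hmga2*-/- (13.2% and 16.8%), with a median log2 change of 0.54 and 0.81. *Slc2a1*, the glucose transporter GLUT1, rose 2.95-fold and 3.94-fold, and *Pgk1*, a glycolytic enzyme, rose 2.33-fold and 2.17-fold. *Adm*, the vasodilator adrenomedullin, which is also counted among the ligands linked to angiogenesis, fell 2.98-fold and 2.50-fold. The HIF targets thus included both directions. Of 9 regulators of the HIF pathway, set against the same shares, 2 were higher, *Egln1* (1.76-fold and 1.99-fold) and *Egln3* (2.14-fold and 1.91-fold), which encode the oxygen-sensing hydroxylases, and *Egln3* stands on both lists. The 2 that were lower were *Arnt2* and *Epas1*, which encodes HIF2A and fell 2.45-fold and 2.17-fold, so the list's median was -0.03 in *Hmga2*+/+ and 0.03 in *Hmga2*-/-. Of 8 PPAR target genes, a class to which *Angptl4* belongs, 0 were higher and 3 were lower in *Hmga2*+/+, where 18.3% of all genes were lower (*Pdk4*, 1.82-fold, *Fabp4*, 1.79-fold, and *Lpl*, the enzyme that ANGPTL4 inhibits, 4.10-fold). In *Hmga2*-/- 0 were higher and 2 were lower, where 16.8% of all genes were lower, *Fabp4* (log2 change -1.07) and *Lpl* (2.72-fold), and *Pdk4* was 1.29-fold lower, with medians of -0.49 and -0.35.

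For each factor that could be called and ranged at least 2-fold over the libraries, the 3 genes of most similar pattern were found among 11368 protein-coding genes, by the root of the summed squared differences of their centred log2 RPKM over the 4 libraries. With 4 points that are 2 genotypes by 2 treatments, this is a description of likeness. *Slc2a1* was nearest to *Vegfa* (distance 0.10), at 9.90, 29.2, 8.15 and 32.1 RPKM in *Hmga2*+/+ Ctrl, *Hmga2*+/+ TGFB1, *Hmga2*-/- Ctrl and *Hmga2*-/- TGFB1, followed by *Uchl1* (0.17) and *Mamdc2* (0.24). Like *Vegfa*, *Slc2a1* was lowest in *Hmga2*-/- Ctrl and highest in *Hmga2*-/- TGFB1. The genes nearest to *Vegfb* were *Ube2l6* (0.06), *Zrsr1* (0.07) and *Nptx1* (0.08), and those nearest to *Vegfc* were *Col8a1* (0.04), *Dok1* (0.06) and *Dpysl3* (0.06). *Osr1* (0.11), *Gbp9* (0.13) and *Emc9* (0.15) were nearest to *Figf*.

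The 250 bases before the start of *Vegfa*, *Vegfb* and *Vegfc* are shown to set the sequences of factors that moved in opposite directions side by side (RefSeq, GRCm38.p6). Promoter entries were matched for 6 of the 9 factors. Capitals mark matches, on either strand, to GGGCGG (the GC box that SP1 binds) and CAGAC (the SMAD-binding letters). ACGTG (the core of the HIF site) and TGANTCA (the AP-1 site) were searched too. Positions are chr17:46032378-46032627 (minus strand), chr19:6987652-6987901 (minus strand) and chr8:54077282-54077531 (plus strand).
Vegfa promoter: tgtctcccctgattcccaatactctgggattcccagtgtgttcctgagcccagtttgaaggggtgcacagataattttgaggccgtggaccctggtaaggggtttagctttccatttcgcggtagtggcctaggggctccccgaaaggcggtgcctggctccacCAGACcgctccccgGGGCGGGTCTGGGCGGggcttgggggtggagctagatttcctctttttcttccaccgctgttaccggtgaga
Vegfb promoter: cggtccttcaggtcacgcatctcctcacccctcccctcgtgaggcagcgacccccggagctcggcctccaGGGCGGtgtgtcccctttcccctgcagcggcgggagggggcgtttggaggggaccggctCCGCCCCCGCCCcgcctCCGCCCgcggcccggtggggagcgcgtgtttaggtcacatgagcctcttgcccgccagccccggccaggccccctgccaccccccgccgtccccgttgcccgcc
Vegfc promoter: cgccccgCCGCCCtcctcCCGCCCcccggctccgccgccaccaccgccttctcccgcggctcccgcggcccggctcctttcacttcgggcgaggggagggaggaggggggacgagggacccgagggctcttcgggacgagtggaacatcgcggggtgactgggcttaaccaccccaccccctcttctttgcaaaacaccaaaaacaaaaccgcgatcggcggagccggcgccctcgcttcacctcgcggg
The *Vegfa* window held 2 matches to CAGAC, which begin 86 and 66 bases before the start, and 2 to GGGCGG, at 72 and 62 bases. The CAGAC match at 66 lies on the other strand and shares its last base with the second GGGCGG. *Vegfb* held 4 and *Vegfc* 2 matches to GGGCGG and none of the other letters. Windows of *Pgf* and *Angptl2* held 2 matches each to GGGCGG, and that of *Figf* held none of the 4 motifs. All 250 bases of the *Pgf* window and 144 of the *Figf* window lay in annotated exons. The windows of *Vegfa*, *Vegfb*, *Vegfc* and *Angptl2* held 0 such bases. Among 32851 promoters 42.2% held CAGAC, 32.7% GGGCGG, 16.6% ACGTG and 6.75% TGANTCA, so the matches in *Vegfa* are common ones, and ACGTG and TGANTCA were in none of the 6 windows. The windows of *Vegfa* (59.2% GC), *Vegfb* (76.4%) and *Vegfc* (71.6%) were above the median of all promoters (52.4%), and that of *Figf* (42.4%) was below. A match describes letters and not a bound site. Only these 250 bases were searched, so a motif absent from a window can lie outside it.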

How the data were processed

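RNA was made into libraries with a stranded total RNA kit and sequenced as single-end reads. Per the paper's methods, the labels and the file header, the authors used trimmomatic for trimming and HISAT2 (2.1.0 in the submitters' processing notes) for mapping to mm10, and deposited RPKM per UCSC known transcript from HOMER, counted on the strand of the annotation and given with 3 decimals. The other deposited column used is transcript length in bases. The paper speaks of duplicates, and whether they were pooled is not stated. The members and gene lists were chosen with earlier results of these data known.

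A transcript took the name of the GENCODE vM21 gene, of its own strand, that held 50% or more of its span (57708 of 63759 transcripts, 90.5%). Mapped reads per library were derived as the value that made low RPKM of transcripts under 600 bases whole reads (100% within 0.1 of a whole read), and reads per transcript followed from RPKM, length and depth. No count test was run, since the values are RPKM with 1 library per condition. For log2 changes 0 RPKM was set to 0.001. Ratio intervals (95%) are exact conditional binomial intervals, and those of a difference of responses use the delta method. Reads of an exon are the difference of transcripts that differ by it alone, and the table's length equals the GENCODE exon sum less 2 bases per exon plus 1 for 82.4% of 12230 transcripts of the same span. The genes named are the 9 factors, *Hmga2*, treatment markers (1 is not reported here), all receptors and, of every other list, up to 3 genes with the largest change on TGFB1 and enough reads, plus the nearest genes. *Arnt2* was named after its values were seen, to complete a count. The steps were tested on simulated data. Alternatives were pseudocounts, read minimums, rescaling to median ratios, the choice of transcript (for the ligand shares added after seeing the data) and a fold of 2. The software was Python 3.11.15 with scipy 1.17.1, pandas 2.3.3, numpy 2.4.6 and matplotlib 3.10.9.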

Additional observations from a re-analysis of the deposited data

How the results depend on the processing

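Of 80 recomputed counts of factors 69 stayed within 1.5 times, and of 225 recomputed log2 changes 210 stayed inside their counting interval. Of these, 10 counts and 45 log2 changes came from the transcript with the longest exonic length. That choice left the values of every factor but *Angptl2* as they were, so most of its agreement was fixed in advance. No change that was called turned its sign, and 1 that was not called did, *Pgf* between genotypes in Ctrl (log2 -0.01, and 0.02 after rescaling). With a mean of at least 10 reads, and likewise with no filter, 2 factors were higher in *Hmga2*-/- Ctrl (*Angpt2* and *Angptl4*), 3 were higher in *Hmga2*-/- under TGFB1 (*Pgf*, *Angptl2* and *Angptl4*), 1 had a larger response in *Hmga2*-/- (*Pgf*) and 2 a smaller one (*Angpt2* and *Angptl4*), since these low genes then enter. The shares of all genes in those directions rose too, to 4.83%, 6.15%, 5.98% and 4.9% at 10 reads and 11.4%, 12.7%, 15.2% and 13.9% with no filter. On TGFB1 *Angpt2* joined the factors that were lower in both genotypes (3 in each) and *Pgf* those higher in *Hmga2*-/- (4). Of all genes 21.8% were then lower in *Hmga2*+/+ and 20.4% in *Hmga2*-/- at 10 reads, and 26.6% and 25.4% with no filter. Those higher in *Hmga2*-/- were 13.9% at 10 reads and 17.6% with no filter. At a fold of 2 the count lower on TGFB1 in *Hmga2*+/+ was 1 (*Figf*), against 7.89% of all genes. The count lower in *Hmga2*-/- Ctrl was 0 (all genes 0.598%) and the count higher in *Hmga2*-/- under TGFB1 was 0 (0.812%). A pseudocount of 1 moved 11 log2 changes toward 0 and no call. With the transcript of highest mean RPKM *Vegfa* rose by 1.71 (log2) in *Hmga2*+/+ and *Vegfc* by 1.57 in *Hmga2*-/-, and the log2 difference of *Vegfc* between the genotypes in Ctrl was 0.04 in place of 0.32. Rescaling gave -0.91 for *Vegfb* in *Hmga2*+/+. No paired analysis was possible because the conditions share a single replicate number, and no library was left out, since each is the only one of its condition. A fit that takes the genotypes as replicates of the TGFB1 change was not run. Depth limits *Pgf*, *Angpt2*, *Angptl4* and the reads of single exons.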
